A study of Mus musculus with 9 samples.

Results

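Glial cultures from both SOD1 transgenic mouse lines were pooled and compared with nontransgenic glia, to find the genes on which both lines moved the same way. All 9 arrays of the series enter, 6 transgenic and 3 nontransgenic. SOD1-G93A pups (strain label B6SJL-Tg(SOD1*G93A)2Gur/J) carried human superoxide dismutase 1 with the G93A mutation. SOD1-WT pups (B6SJL-Tg(SOD1)2Gur/J) carried the normal human gene. Nontransgenic pups (labelled B6SJL 2Gur/J) carried no transgene. There were 3 biological replicates of each. All pups were 1 to 3 days old, the meninges had been stripped off, and the cells were grown to confluence in horse serum without further treatment. Each genotype is represented by 1 mouse line, so the transgene, its insertion site and other differences between the lines cannot be told apart. The labels give neither the sex of the pups nor the litters, and if replicates shared a litter the p-values measure only the spread between these samples. Of 24613 probes, 13972 were kept because their detection p-value was below 0.01 on at least 3 of 9 arrays. A probe was called changed the same way when 3 tests each passed an adjusted p of 0.05 with 1 sign. The tests set both lines together, SOD1-G93A alone and SOD1-WT alone against nontransgenic glia. This held for 1032 kept probes. They name 841 of the 9842 genes measured, and 127 of them lack a symbol.

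Superoxide dismutase 1 is a copper and zinc enzyme of the cytosol that turns superoxide into hydrogen peroxide. Dominant mutations in it cause a familial form of amyotrophic lateral sclerosis, in which motor neurons die and neighbouring astrocytes and microglia take part in the disease. Lines that express the normal human protein are used beside mutant lines to separate the mutation from the load of extra enzyme. Cultured glia of newborn mice are mostly astrocytes, which take up glutamate, buffer potassium and secrete matrix and synapse-organising proteins. Microglia, ependymal cells and meningeal fibroblasts are common companions in such cultures.

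Normalised intensities correlated at 0.988 to 0.995 between arrays of 1 group. The correlation was 0.979 to 0.985 between SOD1-G93A and nontransgenic arrays and 0.954 to 0.968 between SOD1-WT and nontransgenic arrays. Each array detected 13107 to 13618 probes, and the number of arrays limits the precision. SOD1-WT replicate 3 stood apart, with a mean raw signal of 279.6 against 211 to 236 elsewhere and a larger bead standard error. Without it the count of probes changed the same way was 1220 in place of 1032. The Y-linked gene Kdm5d was detected on 3 of 3 SOD1-WT arrays, 0 of 3 SOD1-G93A arrays and 0 of 3 nontransgenic arrays, so this signal went with the groups. Of the other Y-linked genes on the array, Eif2s3y was detected on 2 of 3 SOD1-WT arrays and on no other array, and Uty on none. The part of these signals in the results was not tested. Astrocyte markers such as Gfap, Aqp4 and Slc1a3 were detected on every array, and the erythroid markers Hba-a1, Hbb-b2 and Alas2 on none of the 9. Mouse Sod1 had log2 intensities of 11.21, 11.06 and 11.05 in SOD1-G93A glia and 11.24, 11.25 and 11.32 in SOD1-WT glia, against 11.14, 10.81 and 10.85 in nontransgenic glia. Its change of 0.25 ± 0.09 (SE) for both lines together did not pass (limma adjusted p = 0.0714). The human transgene may escape a mouse probe. That call turned on the setting, passing without nontransgenic replicate 1 (0.36, adjusted p = 0.0213) and in 3 other settings given at the end.

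Both lines together differed from nontransgenic glia at 2850 of 13972 kept probes (20.4%), of which 1497 (10.7%) were higher and 1353 (9.68%) lower. The chemokines Ccl12 (by 1 of 2 probes), Ccl2 and Cxcl10, the matrix protein Sparc and the astrocyte filament Gfap were higher in both lines. The matrix protein Thsd4, the pentose phosphate enzyme Taldo1 and the connexin Gjb6 were lower in both. Genes of motile cilia were higher for both lines together (9 of 9), but only 5 rose the same way in both lines. Of 14 fibroblast and meningeal markers 12 were lower for both lines together. Only 7 of the 14 fell the same way, and 2 were higher in SOD1-G93A glia alone. Probes changed the same way numbered 1032 (7.39%), with 476 (3.41%) higher and 556 (3.98%) lower. Their median log2 change was 0.68 among the higher and -0.80 among the lower, against 0.01 over all kept probes. In both lines at once, 143 probes changed by 2-fold or more, 47 of them higher and 96 lower. In 1022 of the 1032, all 6 transgenic arrays lay on 1 side of the 3 nontransgenic arrays, a separation found at 2376 (17%) of all kept probes, with the transgenic arrays above at 8.56% and below at 8.45%. The 1032 were chosen by tests on these same arrays, so their separation follows largely from the choice. Counts of the gene lists below are read against all 9842 genes by their brightest probe, of which 21.8% were called for both lines together, 11.1% higher and 10.7% lower, and 3.5% rose and 4.53% fell the same way in both lines. In bulk RNA from a culture, fewer cells of a type and less RNA per cell cannot be told apart.

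The remaining calls for both lines together came mostly from the SOD1-WT line. SOD1-WT glia alone passed at 1456 of the 2850 probes and SOD1-G93A glia alone at 242, while neither passed by itself at 103 and the lines passed in opposite directions at 17. Each line by itself differed from nontransgenic glia at 1487 probes (10.6%) for SOD1-G93A and 3539 (25.3%) for SOD1-WT. Both comparisons share the 3 nontransgenic arrays, so a deviation of those arrays moves both lines alike. A fit that treats the 6 transgenic arrays as 1 group puts the difference between lines into the spread. It called 1227 probes in place of 2850, and 945 of these were changed the same way.

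**Figure D1:**
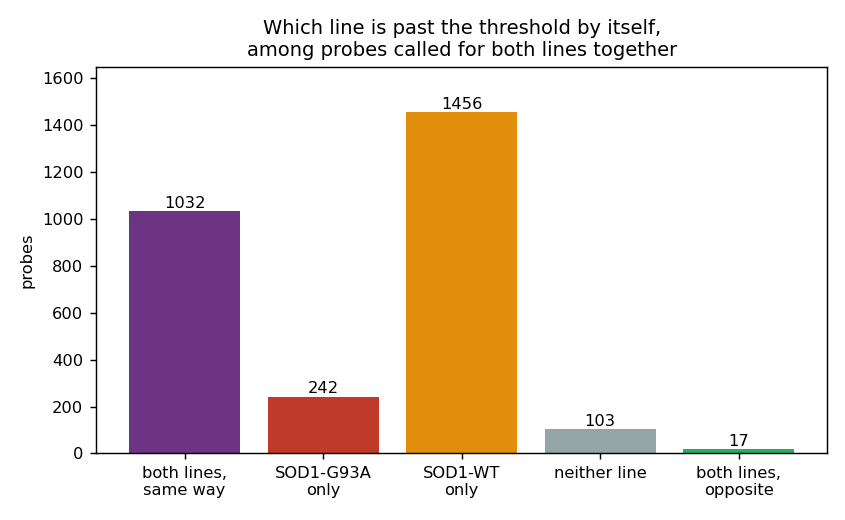
Bars give the number of probes, among the 2850 called for both lines together, at which both lines passed the same way (1032), SOD1-G93A alone passed (242), SOD1-WT alone passed (1456), neither passed (103) or the lines passed in opposite directions (17). The bar for SOD1-WT alone is the tallest.

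**Figure D2:**
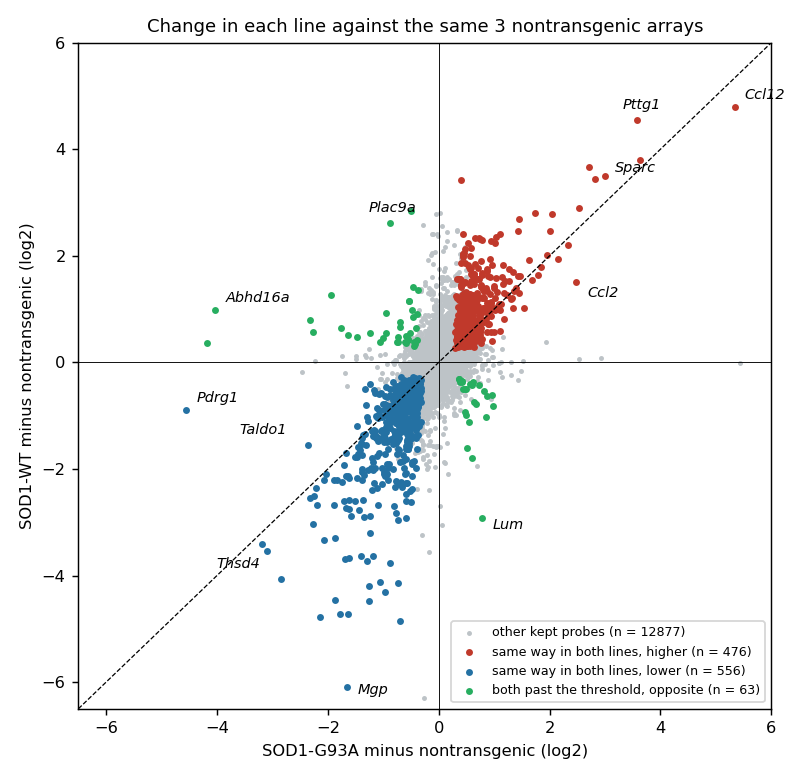
Each point is a kept probe, with the log2 change of SOD1-G93A glia on the horizontal axis and of SOD1-WT glia on the vertical axis, both against the same 3 nontransgenic arrays. The dashed line marks equal change. SOD1-WT glia moved further from 0 at 786 of the 1032 probes changed the same way.

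Ccl12, Ccl2 and Cxcl10 are chemokines, small secreted proteins that draw leukocytes, and each had a probe that rose in both lines. Ccl12, a mouse chemokine that draws monocytes, had log2 intensities of 9.78, 9.71 and 9.82 in SOD1-G93A glia and 9.25, 9.11 and 9.31 in SOD1-WT glia, against 4.31, 4.36 and 4.60 in nontransgenic glia. All 6 transgenic arrays were far above the others, and the probe was not well above background on any nontransgenic array. Both lines together were at least 29.5-fold higher (limma adjusted p = 3.2e-13). Here and below such a bound sets each dim array to its dimmest detected probe. The other kept probe of Ccl12 went the other way, at -0.59 (adjusted p = 0.00332), so the direction for this gene rests on 1 probe. Ccl2, the related main monocyte attractant, stood at 8.21, 8.15 and 8.17 in SOD1-G93A glia and 7.50, 7.14 and 6.96 in SOD1-WT glia, against 5.37, 5.85 and 5.86 in nontransgenic glia. Every transgenic array exceeded every nontransgenic one, and the mutant arrays were highest. The rise was 3.98-fold for both lines together (log2 change 1.99 ± 0.13 SE, adjusted p = 8.63e-08), and the lines differed from each other (adjusted p = 0.00038). Cxcl10, an interferon-induced attractant of T cells, stood at 5.95, 6.49 and 6.03 in SOD1-G93A glia and 6.72, 6.57 and 6.56 in SOD1-WT glia. It was near background on the nontransgenic arrays, at 4.17, 4.14 and 4.13, and both lines together were at least 3.42-fold higher (adjusted p = 5.19e-09).

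The promoters of Cxcl10 and Ccl12 are shown because these genes had 2 of the large rises shared by both lines and are held in the RefSeq promoter table (GRCm38.p6), each from 250 bases before to 50 after the gene start. In that of Cxcl10 (minus strand, chr5:92348840-92349139) capitals mark a match to TGANTCA, an AP-1-type motif. In that of Ccl12 (plus strand, chr11:82101595-82101894) capitals mark TATAAA, the TATA box.
Cxcl10: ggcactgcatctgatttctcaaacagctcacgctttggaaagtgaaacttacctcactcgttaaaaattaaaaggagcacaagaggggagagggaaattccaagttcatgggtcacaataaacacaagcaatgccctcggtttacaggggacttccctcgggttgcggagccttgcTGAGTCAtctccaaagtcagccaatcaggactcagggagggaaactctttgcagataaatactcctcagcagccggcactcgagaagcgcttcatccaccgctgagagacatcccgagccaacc
Ccl12: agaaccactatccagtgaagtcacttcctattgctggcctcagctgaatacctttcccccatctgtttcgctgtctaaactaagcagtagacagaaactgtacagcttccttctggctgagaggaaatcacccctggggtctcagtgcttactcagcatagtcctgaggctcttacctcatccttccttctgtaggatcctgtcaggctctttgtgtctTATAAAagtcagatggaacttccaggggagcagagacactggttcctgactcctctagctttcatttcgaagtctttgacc
The 2 motifs were chosen after the sequences had been seen and were searched on both strands. Of 32851 promoters of this length, 7.81% held TGANTCA and 13.6% TATAAA. A match describes letters in this window and is not evidence of binding. Of the 137 genes or unnamed probes changed at least 2-fold in both lines, 91 had an entry in the promoter table.

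Across the list of chemokines and cytokines, 6 of 25 measured genes were higher in both lines together, 5 were lower and 14 did not pass. Of these, 3 rose the same way in both lines and 1 fell. In SOD1-G93A glia alone 7 were higher and 1 lower, and in SOD1-WT glia alone 5 were higher and 9 lower. The third shared rise was Ppbp, a platelet chemokine, with 7.96, 7.73 and 7.38 in SOD1-G93A glia and 7.78, 7.88 and 7.02 in SOD1-WT glia, against 6.37, 6.71 and 6.65 in nontransgenic glia. Its log2 change was 1.05 ± 0.18 (adjusted p = 0.000592), and the interval of the difference between lines ran from -0.31 to 0.56 (95%). The shared fall was Il33, an alarmin cytokine stored in nuclei, at 8.36, 8.36 and 8.22 in SOD1-G93A glia and 8.50, 8.46 and 8.43 in SOD1-WT glia, against 9.06, 9.19 and 9.11 in nontransgenic glia. The groups did not overlap, and Il33 was lower by 0.73 in both lines together (log2 change -0.73 ± 0.08, adjusted p = 1.31e-05). Ccl12 stands in this list by its brighter probe, among the lower. The list median was -0.05 for both lines together, 0.27 in SOD1-G93A glia and -0.16 in SOD1-WT glia. For both lines together it was 0.00 over all genes by their brightest probe, where 1095 of 9842 genes were higher and 1053 lower.

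Of the 6 factors and receptors that the study linked to mutant glia, all 6 were higher in both lines together and 3 rose the same way in both lines. The study chose this list on these samples, so its direction is not independent evidence. Beside Ppbp these were Gmfb, a glia maturation factor, and Shh, the hedgehog morphogen. Gmfb was at least 1.26-fold higher (adjusted p = 0.00127). Shh stood at 6.57, 6.49 and 6.43 in SOD1-G93A glia and 5.94, 6.04 and 6.37 in SOD1-WT glia, against 5.57, 5.55 and 5.54 in nontransgenic glia, and rose by 0.75 ± 0.10 (adjusted p = 6.76e-05). Ccl5, a T cell attractant, and Ccl8, a monocyte attractant, gave log2 changes of 0.97 and 1.16 in SOD1-G93A glia and of 0.10 and 0.47 in SOD1-WT glia, each against nontransgenic glia. Ptgdr, a prostaglandin D receptor, was detected in neither SOD1-WT nor nontransgenic glia and was at least 1.57-fold higher in SOD1-G93A glia. None of these 3 passed for SOD1-WT alone, and none passed when the 6 transgenic arrays were treated as 1 group (adjusted p = 0.246 for Ccl5, 0.0674 for Ccl8 and 0.336 for Ptgdr).

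The largest other rises were in genes of varied function. Pttg1, the securin that holds back chromatid separation, had log2 intensities of 8.0, 8.08 and 7.99 in SOD1-G93A glia and 9.21, 9.28 and 8.52 in SOD1-WT glia, against 4.55, 4.34 and 4.47 in nontransgenic glia. It was detected on all 6 transgenic and no nontransgenic arrays and was at least 14.9-fold higher (adjusted p = 1.86e-10). Sparc, a secreted glycoprotein that binds collagen, stood at 10.70, 11.02 and 10.89 in SOD1-G93A glia and 11.59, 11.64 and 10.90 in SOD1-WT glia, against 7.86, 7.87 and 7.91 in nontransgenic glia. It was bright in all 6 transgenic samples and 9.48-fold higher (log2 change 3.25 ± 0.14, adjusted p = 1.76e-09). Tmem68, an enzyme of triacylglycerol synthesis in the endoplasmic reticulum, stood at 8.18, 7.88 and 7.96 in SOD1-G93A glia and 8.19, 8.17 and 8.13 in SOD1-WT glia, against 4.47, 4.29 and 4.37 in nontransgenic glia. The lines lay close together, with an interval of the difference from -0.38 to 0.06, and the rise was at least 11.1-fold (adjusted p = 4.11e-12). Plek, a protein kinase C substrate of platelets and leukocytes, was at least 7.26-fold higher, and Coq2, which makes a precursor of ubiquinone, at least 5.79-fold.

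Further large rises were Glycam1, a mucin-like ligand of L-selectin (2.27 ± 0.18), Trim11, a ubiquitin ligase (2.42 ± 0.10), and Gramd4, a GRAM domain protein (at least 3.06-fold). Glycam1 stood at 9.36, 9.33 and 9.53 in SOD1-G93A glia and 9.21, 9.13 and 9.52 in SOD1-WT glia, against 6.73, 6.79 and 7.72 in nontransgenic glia. Even the highest nontransgenic array stayed below every transgenic one. Kif3a, a motor subunit that carries cargo into cilia, rose by 2.27 by 1 probe and 0.86 by the other. That other, brighter probe was not called changed the same way, with 0.42 in SOD1-G93A glia and 1.31 in SOD1-WT glia. Actb, cytoplasmic actin, rose by 2.06 and 1.10 by a pair of probes, while its brightest probe gave 0.07 (adjusted p = 0.65) and a dim one -0.41 (adjusted p = 0.0619), so its direction depends on the probe.

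**Figure D3:**
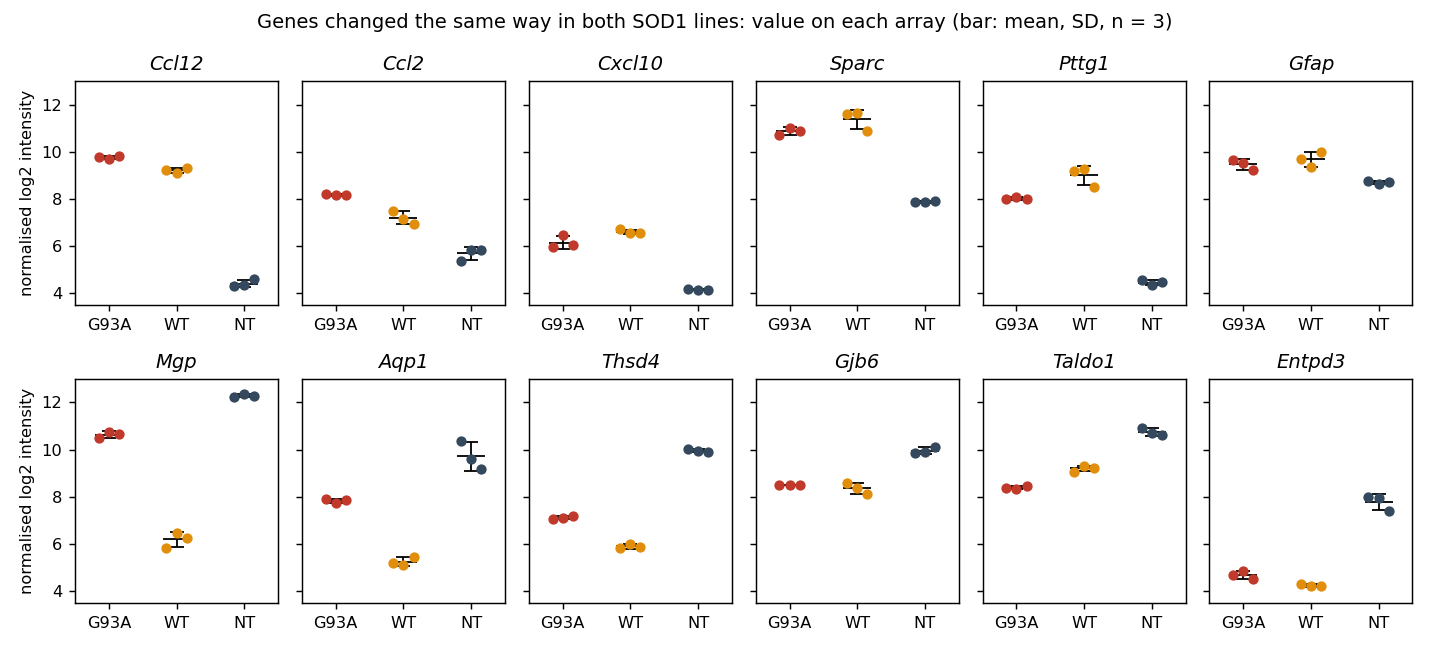
Normalised log2 intensity of 12 genes changed the same way, with 1 point per array for SOD1-G93A, SOD1-WT and nontransgenic (NT) glia, and the mean and SD of 3 arrays. In every panel the 6 transgenic arrays lie on 1 side of the 3 nontransgenic arrays. Ccl12, Pttg1 and Cxcl10 were not detected on the nontransgenic arrays.

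Among astrocyte markers, Gfap and Aqp4 rose in both lines. Gfap, the intermediate filament of astrocytes, stood at 9.66, 9.52 and 9.23 in SOD1-G93A glia and 9.70, 9.37 and 10.01 in SOD1-WT glia, against 8.78, 8.65 and 8.71 in nontransgenic glia. All transgenic arrays were higher, and the rise was 1.82-fold (log2 change 0.87 ± 0.13, adjusted p = 0.000235) with an interval of the difference between lines from -0.54 to 0.10. Aqp4, the water channel of astrocyte end-feet, stood at 11.69, 11.93 and 11.90 in SOD1-G93A glia and 11.74, 11.55 and 11.81 in SOD1-WT glia, against 11.15, 11.06 and 11.11 in nontransgenic glia. It rose by 0.66 ± 0.09 (adjusted p = 0.000106). The glutamate transporter Slc1a3 (0.36, adjusted p = 0.00858) and the transcription factor Sox9 (0.43, adjusted p = 0.00174) were higher for both lines together but did not pass in SOD1-G93A glia alone. The Slc1a3 call ended without nontransgenic replicate 1 (0.30, adjusted p = 0.0589). Of 11 measured markers 4 were higher, 2 were lower (S100b and Slc1a2) and 5 did not pass, and the lower calls numbered 0 without nontransgenic replicate 1 and 1 when SOD1-WT replicate 2 was left out, or replicate 2 or 3 of nontransgenic glia, or replicate 1 or 3 of SOD1-G93A glia. In SOD1-G93A glia alone 2 were higher and 2 lower, and in SOD1-WT glia alone 5 were higher and 1 lower. The list median was 0.09 for both lines together, 0.02 in SOD1-G93A glia and 0.19 in SOD1-WT glia. Summed over the list, intensity was 27204 to 29097 in SOD1-G93A glia and 29564 to 32204 in SOD1-WT glia, against 24046 to 25471 in nontransgenic glia, with no overlap. Such a sum is weighted to the brightest probes and does not describe the markers in general.

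Gjb6, a connexin of astrocyte gap junctions, went down while Gfap and Aqp4 went up. It stood at 8.50, 8.51 and 8.49 in SOD1-G93A glia and 8.58, 8.39 and 8.10 in SOD1-WT glia, against 9.85, 9.88 and 10.12 in nontransgenic glia. The transgenic arrays were all lower, by 2.87-fold (log2 change -1.52 ± 0.11, adjusted p = 1.73e-07), with an interval of the difference between lines from -0.12 to 0.41. In the list of glutamate and potassium handling 3 of 11 genes were higher, 3 were lower and 5 did not pass. Gja1, the other main astrocyte connexin, gave 0.19 and did not pass (adjusted p = 0.12). Genes linked to reactive astrocytes were split, with 6 of 20 higher, 6 lower and 8 not past. Besides Gfap and Cxcl10, the adhesion receptor Cd44 rose the same way in both lines (0.49, adjusted p = 0.00248; its other kept probe gave -0.06 and did not pass). Timp1, an inhibitor of matrix proteases, fell in both by 0.85 (log2 change -0.85 ± 0.09, adjusted p = 8.77e-06), and so did the sphingosine kinase Sphk1 (-1.20) and the pentraxin Ptx3 (-0.80).

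Markers of ependyma and choroid plexus, the ciliated lining and secretory epithelium of the ventricles, moved strongly in both lines. Folr1, a folate receptor of choroid plexus, stood at 7.69, 7.50 and 7.61 in SOD1-G93A glia and 8.82, 8.61 and 8.46 in SOD1-WT glia, against 6.38, 5.92 and 6.17 in nontransgenic glia. It was 3.88-fold higher (log2 change 1.95 ± 0.11, adjusted p = 2.48e-08), further in SOD1-WT glia. Otx2, a choroid plexus transcription factor, stood at 7.69, 7.62 and 7.54 in SOD1-G93A glia and 8.10, 8.08 and 7.51 in SOD1-WT glia, against 5.93, 6.24 and 5.78 in nontransgenic glia. All transgenic arrays were higher, by 3.42-fold (1.77 ± 0.14, adjusted p = 4.16e-07). The water channel Aqp1, abundant in choroid plexus, went the other way, at 7.88, 7.74 and 7.86 in SOD1-G93A glia and 5.20, 5.11 and 5.45 in SOD1-WT glia, against 10.36, 9.58 and 9.17 in nontransgenic glia. It fell by 3.17 ± 0.19 (adjusted p = 3.3e-08), and by 1.64 by its other probe. Of 7 measured markers 5 were higher and 2 lower, and 3 rose and 2 fell the same way in both lines. Ttr, the thyroxine carrier of choroid plexus, differed widely within the mutant group (9.12, 8.15 and 5.95) and gave 0.09 in SOD1-WT glia.

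All 9 measured genes of motile cilia were higher for both lines together, and 5 rose the same way in both lines. Dynlrb2, a light chain of axonemal and cytoplasmic dynein, stood at 10.44, 10.56 and 10.41 in SOD1-G93A glia and 11.61, 11.62 and 11.63 in SOD1-WT glia, against 9.64, 9.79 and 9.70 in nontransgenic glia. The 3 groups were fully apart, in the order nontransgenic, SOD1-G93A, SOD1-WT, and the rise was 2.52-fold (1.33 ± 0.08, adjusted p = 3.78e-08). Rsph4a, a radial spoke protein, stood at 8.0, 7.88 and 7.85 in SOD1-G93A glia and 9.55, 9.41 and 9.82 in SOD1-WT glia, against 7.14, 7.33 and 7.30 in nontransgenic glia (1.50 ± 0.10, adjusted p = 1.02e-07). The list median was 0.36 in SOD1-G93A glia and 1.56 in SOD1-WT glia, each against nontransgenic glia. Odf3b, a protein of the ciliary and sperm tail region, gave -0.06 in SOD1-G93A glia and 2.78 in SOD1-WT glia. With the 6 transgenic arrays as 1 group, the Rsph4a (adjusted p = 0.0649), Odf3b (0.303) and Tekt1 (0.0932) calls ended. The same-way call of Tekt1, a tektin of ciliary microtubules, also ended in 6 of the 9 fits that left out 1 array. Summed intensity of this list was 2345 to 2462 in SOD1-G93A glia and 5724 to 6148 in SOD1-WT glia, against 1476 to 1678 in nontransgenic glia. Whether the ciliated and secretory markers reflect the number of such cells was not tested.

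Of 21 measured matrix genes and TGF-beta targets 10 (47.6%) were lower for both lines together, against 10.7% of all genes, 1 was higher and 10 did not pass. In SOD1-G93A glia alone 5 were lower, in SOD1-WT glia alone 13, and 5 fell the same way in both lines. Thsd4, a fibrillin-binding matrix protein, stood at 7.06, 7.11 and 7.17 in SOD1-G93A glia and 5.81, 6.01 and 5.86 in SOD1-WT glia, against 10.02, 9.94 and 9.90 in nontransgenic glia. It was lower in both lines together (log2 change -3.45 ± 0.08, adjusted p = 4.11e-12). Fbln1, fibulin of elastic fibres and basement membranes, stood at 5.78, 5.89 and 5.50 in SOD1-G93A glia and 4.94, 5.16 and 4.75 in SOD1-WT glia, against 8.19, 7.86 and 7.89 in nontransgenic glia. Both its probes agreed in direction, at -2.64 and -2.00. Ext2, which extends heparan sulfate chains, stood at 4.83, 4.72 and 4.77 in SOD1-G93A glia and 4.74, 4.63 and 4.32 in SOD1-WT glia, against 6.95, 7.14 and 7.22 in nontransgenic glia. Transgenic values were close to background, and the fall was 5.40-fold (-2.43 ± 0.10, adjusted p = 1.22e-09). Among the secreted synapse-organising proteins, Thbs2, a thrombospondin, fell in both lines to 8.15, 8.28 and 8.42 in SOD1-G93A glia and 8.36, 8.47 and 8.54 in SOD1-WT glia, against 9.57, 9.47 and 9.63 in nontransgenic glia. The change of Thbs2 was -1.19 ± 0.09 (adjusted p = 3.42e-07), opposite in sign to that of Sparc in the same list.

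Of 14 measured markers of fibroblasts and meninges 12 (85.7%) were lower for both lines together and 2 did not pass, and 7 fell the same way in both lines. In SOD1-WT glia alone all 14 were lower, while in SOD1-G93A glia alone 7 were lower, 5 did not pass and 2, Lum and Col1a2, were higher. Mgp, a matrix protein that blocks calcification, stood at 10.47, 10.75 and 10.66 in SOD1-G93A glia and 5.84, 6.47 and 6.27 in SOD1-WT glia, against 12.23, 12.34 and 12.27 in nontransgenic glia. The 3 groups were fully apart, with changes of -1.65 in SOD1-G93A glia and -6.09 in SOD1-WT glia. Foxc2, a mesenchymal transcription factor, stood at 7.39, 7.53 and 7.18 in SOD1-G93A glia and was not detected in SOD1-WT glia (4.32, 4.36 and 4.18), against 9.15, 8.82 and 9.02 in nontransgenic glia. It changed by -1.63 in SOD1-G93A glia and was at least 21.1-fold lower in SOD1-WT glia. Igfbp6, a binding protein of insulin-like growth factors, stood at 7.67, 7.95 and 7.83 in SOD1-G93A glia and 4.90, 4.90 and 4.86 in SOD1-WT glia, against 9.63, 9.69 and 9.47 in nontransgenic glia. Col1a1, the fibrillar collagen chain, changed by -0.59 in SOD1-G93A glia and -2.91 in SOD1-WT glia. Summed intensity of the list was 26701 to 27860 in SOD1-G93A glia and 6147 to 7788 in SOD1-WT glia, against 34148 to 36153 in nontransgenic glia. The part of meningeal cells in the falls of matrix genes was not tested. With the 6 transgenic arrays as 1 group the calls of Mgp (adjusted p = 0.0652), Col1a1 (0.105) and Igf2 (0.0888) ended, and those of Thsd4 (0.000108), Fbln1 (6.68e-05) and Ext2 (1.55e-06) did not. The calls of Pdgfra (0.0684), from the oligodendrocyte list, and Cdh5 (0.0899), from the list of endothelial and mural cells, also ended.

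Other large falls were in genes that the list of meningeal markers does not hold. Whether they came from the same cells as the falls in that list was not tested. Entpd3, an enzyme that degrades extracellular nucleotides, stood at 4.68, 4.85 and 4.49 in SOD1-G93A glia and 4.30, 4.20 and 4.22 in SOD1-WT glia, against 7.99, 7.93 and 7.40 in nontransgenic glia. It was detected on 2 SOD1-G93A arrays and on none of SOD1-WT, and was at least 9.02-fold lower in SOD1-WT glia. Its log2 change was -3.10 in SOD1-G93A glia, where 1 of 3 arrays did not measure it (adjusted p for both lines together = 4.21e-10). Reg3g, an antibacterial lectin, was detected on no transgenic array (4.50, 4.52 and 4.55 in SOD1-G93A glia and 4.28, 4.46 and 4.16 in SOD1-WT glia), against 8.54, 7.47 and 7.12 in nontransgenic glia. It was at least 8.59-fold lower (adjusted p = 1e-07). Dnajc5b, a J-domain co-chaperone, and Ptgis, the prostacyclin synthase, were not detected in SOD1-WT glia and were at least 9.11-fold and 10.8-fold lower there, with log2 changes of -2.06 and -1.68 in SOD1-G93A glia. Mpzl2, an epithelial adhesion protein, changed by -2.64 for both lines together, further in SOD1-WT glia. Pdrg1, a p53-regulated gene, was the exception in the other sense, at least 20.1-fold lower in SOD1-G93A glia, where it was not detected, and with a log2 change of -0.88 in SOD1-WT glia. Its call ended with the 6 transgenic arrays as 1 group (adjusted p = 0.11), as did those of Stra6, a retinol transporter (0.0534), Ranbp3l (0.0628) and Fam180a (0.145).

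Of 18 measured genes in the list of the NRF2 antioxidant response and glutathione 6 (33.3%) were lower for both lines together, against 10.7% of all genes, 12 did not pass and none was higher. Of the 18, 5 (27.8%) fell the same way in both lines, against 4.53% of all genes. Taldo1, transaldolase of the pentose phosphate pathway, stood at 8.36, 8.33 and 8.46 in SOD1-G93A glia and 9.07, 9.30 and 9.23 in SOD1-WT glia, against 10.92, 10.69 and 10.63 in nontransgenic glia. The groups were fully apart, with the mutant glia lowest, and the fall was 3.88-fold (-1.96 ± 0.09, adjusted p = 3.71e-09). Srxn1, sulfiredoxin, which restores oxidised peroxiredoxins, stood at 8.24, 7.98 and 8.35 in SOD1-G93A glia and 8.47, 8.37 and 8.51 in SOD1-WT glia, against 9.35, 9.26 and 9.30 in nontransgenic glia. It changed by -0.98 ± 0.09 (adjusted p = 3.43e-06), and by -0.79 and -0.43 by its other probes. Nqo1, a quinone reductase, changed by -0.59 in SOD1-G93A glia and -1.63 in SOD1-WT glia, and Slc7a11, the cystine importer, by -0.57 and -2.26. Cat, catalase, which breaks down hydrogen peroxide, stood at 4.69, 4.71 and 4.69 in SOD1-G93A glia and 4.78, 4.79 and 4.47 in SOD1-WT glia, against 6.0, 5.18 and 5.52 in nontransgenic glia (-0.88 ± 0.14, adjusted p = 0.000498). Hmox1, heme oxygenase, gave -0.32 (adjusted p = 0.088), Gclc, a subunit of the first enzyme of glutathione synthesis, 0.17 (0.61), and Nfe2l2, which encodes NRF2 itself, 0.28 (0.19). The list median was -0.26. The Slc7a11 call ended with the 6 transgenic arrays as 1 group (adjusted p = 0.0853).

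**Figure D4:**
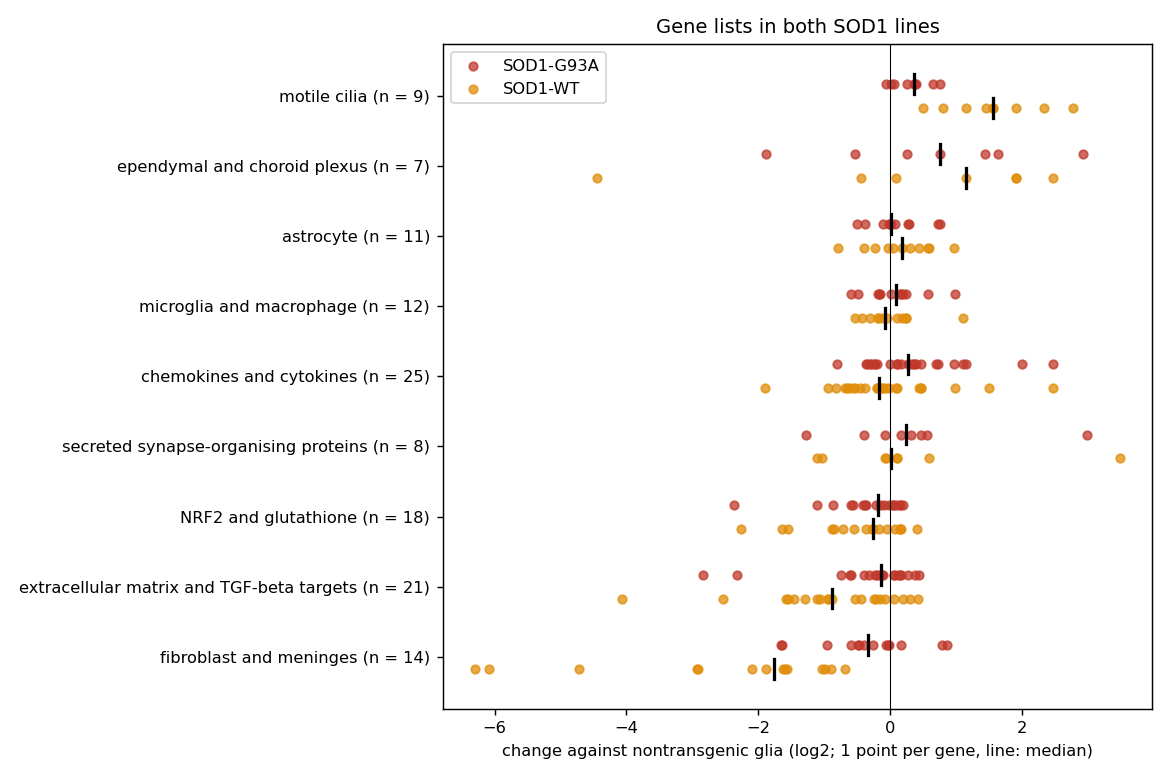
Log2 change of each measured gene of 9 lists in SOD1-G93A glia (upper row of each pair) and SOD1-WT glia (lower row), both against the same nontransgenic arrays, with medians as black lines. The medians of the motile cilia list were 0.36 in SOD1-G93A glia and 1.56 in SOD1-WT glia, and those of the fibroblast and meninges list -0.33 in SOD1-G93A glia and -1.75 in SOD1-WT glia.

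Of 13 measured superoxide dismutases and copper proteins 3 were higher, 2 lower and 8 did not pass (38.5% called, against 21.8% of all genes), and 1 rose the same way in both lines. This was Mt2, a metallothionein that binds copper and zinc, with 10.06, 10.12 and 10.19 in SOD1-G93A glia and 10.41, 10.45 and 10.02 in SOD1-WT glia, against 9.55, 9.39 and 9.27 in nontransgenic glia. Its rise was 1.75-fold (0.81 ± 0.11, adjusted p = 7.94e-05). The related Mt1 gave -0.14 (adjusted p = 0.26), mitochondrial Sod2 gave 0.09 (0.52) and Ccs, the copper chaperone of superoxide dismutase 1, gave 0.16 (0.16). The 2 lower calls, the copper pump Atp7a (-0.28) and the copper importer Slc31a1 (-0.34), were both lost when any 1 nontransgenic array or SOD1-G93A replicate 1 was left out. Of the pair, 1 was lost when SOD1-WT replicate 2, or replicate 2 or 3 of SOD1-G93A glia, was left out. The higher count was 1 when replicate 2 or 3 of either nontransgenic or SOD1-G93A glia was left out.

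Of 12 measured markers of microglia and macrophages 2 were higher, 1 lower and 9 did not pass (25% called, near the 21.8% of all genes). The 2 higher were Cx3cr1 and Fcer1g (0.55), and the lower was C1qb (log2 change -0.45, 95% interval -0.66 to -0.23). Cx3cr1 rose and C1qb fell the same way in both lines. Cx3cr1, the fractalkine receptor of microglia, rose by 0.85 ± 0.13 (adjusted p = 0.000217), with 8.54, 8.73 and 8.79 in SOD1-G93A glia and 9.13, 9.36 and 9.19 in SOD1-WT glia, against 7.76, 8.16 and 8.41 in nontransgenic glia. Summed intensity of the microglial list was 16985 to 17837 in SOD1-G93A glia and 14650 to 15768 in SOD1-WT glia, against 14712 to 18906 in nontransgenic glia, so the groups overlapped. Of 15 measured genes in the interferon-induced list, which does not hold Cxcl10, 7 were higher, 2 lower and 6 did not pass (60% called). None of these 15 rose the same way in both lines, and without nontransgenic replicate 1 the higher count was 3. Stat2, a transcription factor of interferon signalling, fell the same way in both lines by 1.05 (log2 change -1.05 ± 0.09, adjusted p = 2.1e-06). Of 14 genes of MHC class I and complement 5 (35.7%) were lower for both lines together and none was higher. In SOD1-G93A glia alone 5 were lower and none was higher, and in SOD1-WT glia alone 3 were lower and 4 higher. Serping1, the complement C1 inhibitor, fell in both lines, with 10.70, 10.90 and 10.91 in SOD1-G93A glia and 10.72, 10.63 and 10.59 in SOD1-WT glia, against 11.55, 11.46 and 11.38 in nontransgenic glia (-0.72 ± 0.09, adjusted p = 2.77e-05).

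Lists of general cell functions ranged in their share of calls from 11.5% for oxidative phosphorylation to 41.2% for the cell cycle, against 21.8% of all genes. For oxidative phosphorylation 1 of 26 genes was higher (Coq2), 2 were lower and 23 did not pass. For the proteasome and ubiquitin 1 of 20 was higher, 3 were lower and 16 did not pass, and for the unfolded protein and heat shock response 3 of 17 were higher, 2 lower and 12 not past. Cholesterol synthesis had 1 of 14 higher and 2 lower, and lysosomes and cathepsins 2 of 17 higher and 3 lower. In the cell cycle list 1 of 17 was higher (Pttg1), 6 were lower and 10 did not pass, with 3 lower without SOD1-G93A replicate 2 and 2 lower without nontransgenic replicate 2. The higher count was 2 without SOD1-G93A replicate 1. Trophic factors had 2 of 17 higher and 3 lower, all of them the same way in both lines. These were Gmfb and Shh, given above, and Ptn, the heparin-binding growth factor pleiotrophin (-0.68 ± 0.10, adjusted p = 0.000162), Vegfa, the vascular growth factor (-0.94), and Igf2 (-1.01). None of the 5 measured neuronal markers passed for both lines together, while 2 were lower in SOD1-WT glia alone. Of 9 oligodendrocyte markers 2 were higher, Olig1 (0.44) and Cnp (0.29), and 2 lower, Pdgfra (-1.33) and Mbp, a myelin protein. Mbp fell by 0.44 (log2 change -0.44 ± 0.09, adjusted p = 0.00422). The small counts of these lists moved by over 1.5 times under several settings.

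At the 1032 probes changed the same way, the size of the change was often unequal. The lines differed from each other at 399 of them (38.7%), against 2102 (15%) of all kept probes. The 1032 were chosen by tests of the same fit, which use the same spread per probe, so the larger share may follow from the choice. SOD1-WT glia moved further in 376 of the 399 and SOD1-G93A glia in 23, and without SOD1-G93A replicate 1 the count of 399 was 263. At the other 633 the difference between lines did not pass, which does not show that they acted alike. The intervals of that difference were narrow for some, such as -0.39 to 0.05 for Thbs2 and -0.35 to 0.05 for Il33. They were wider for Gramd4 (-0.39 to 0.28) and Glycam1 (-0.33 to 0.57). The interval of Ext2 was -0.05 to 0.47, but its values in both lines were close to background. That of Reg3g was -0.32 to 0.77, but Reg3g was detected on no transgenic array, so it compares background values. With the 6 transgenic arrays as 1 group, 631 of the 633 and 314 of the 399 were still called, as were 139 of the 143 probes changed by 2-fold or more in both lines. All were chosen on these same arrays, and the 633 by a line difference that did not pass, so these counts are no independent support. Among those 143, the lines differed at 75.

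At 63 probes (0.451%) both lines passed in opposite directions, with SOD1-G93A glia higher in 25 and SOD1-WT glia higher in 38. Lum, a proteoglycan of collagen fibrils, stood at 8.15, 8.09 and 8.16 in SOD1-G93A glia and 4.63, 4.34 and 4.32 in SOD1-WT glia, against 7.27, 7.41 and 7.36 in nontransgenic glia. Col1a2, a chain of the same collagen as Col1a1, changed by 0.86 in SOD1-G93A glia and -1.03 in SOD1-WT glia, and Ccn2, a matricellular growth factor, by 0.54 and -1.12. H2-T23, a nonclassical MHC class I gene, stood at 4.46, 4.72 and 4.30 in SOD1-G93A glia and 8.94, 9.03 and 9.11 in SOD1-WT glia, against 8.81, 8.67 and 8.52 in nontransgenic glia. The related H2-T22 and the immunoproteasome subunit Psmb9 also fell in SOD1-G93A glia (-2.26 and -1.47) and rose in SOD1-WT glia (0.56 and 0.48). At such genes the value for both lines together is the mean of opposite changes.

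Many genes were read by several probes, which tested the calls within the array. Of 1966 genes with at least 2 kept probes, 157 had a probe changed the same way. In 77 of these every other kept probe passed in the same direction for both lines together, in 65 none did, and in 1, Ccl12, another passed in the opposite direction. Among the 20 such genes with a 2-fold change in both lines, all other probes agreed in 11. Slc14a1, a urea transporter, rose by 1.32, 1.24 and 0.77 by 3 probes, Ly6h by 1.76, 1.69 and 1.15, and Cfap69, a ciliary protein, by 1.51 and 1.36. In Traf6, a ubiquitin ligase of innate immune signalling, 1 probe gave -1.40 and the other 0.05. In Gys1, muscle glycogen synthase, 1 probe was not detected in SOD1-WT glia and was there at least 4.34-fold lower, while the others gave -0.14 and -0.09 for both lines together. In Supt16, a histone chaperone subunit, the probes gave 1.11 and 0.00. These 6 genes were chosen after their values had been seen.

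**Figure D5:**
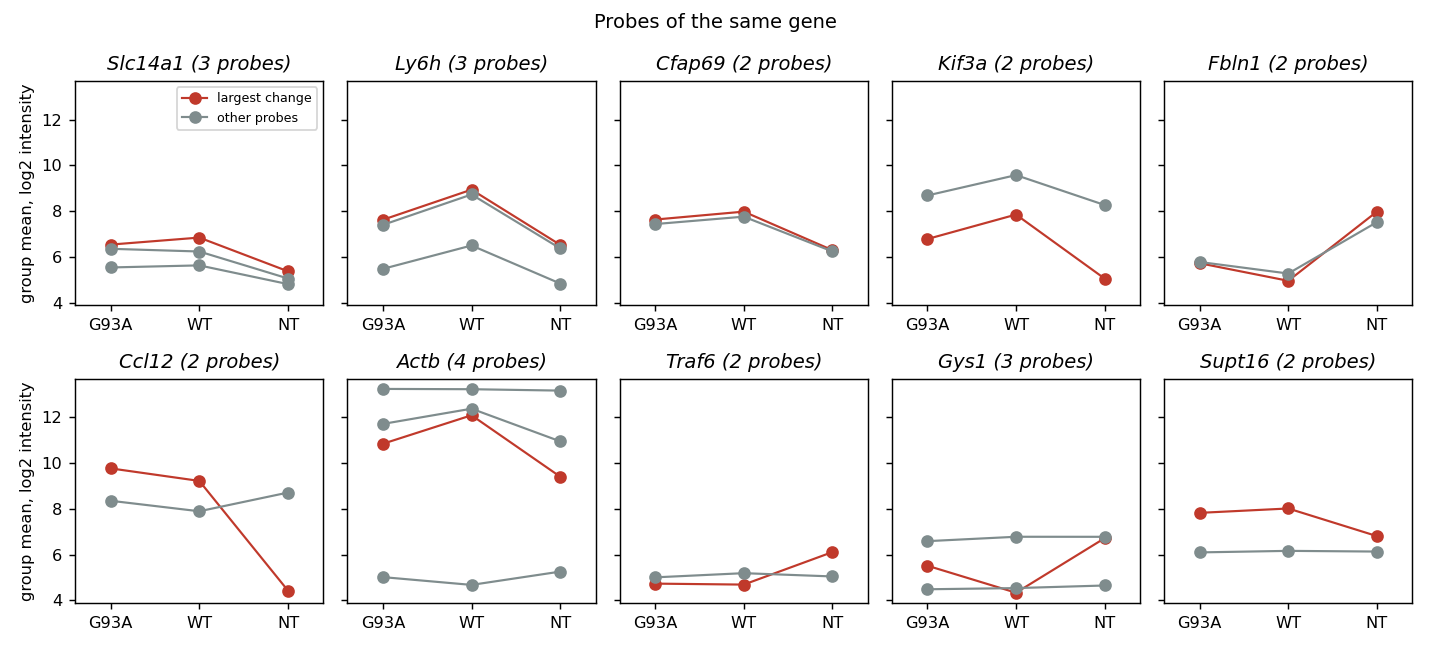
Group mean of log2 intensity in SOD1-G93A, SOD1-WT and nontransgenic (NT) glia for every kept probe of 10 genes, with the probe of largest change in red. The probes run together in Slc14a1, Ly6h, Cfap69, Kif3a and Fbln1, and apart in Ccl12, Actb, Traf6, Gys1 and Supt16. The brighter Kif3a probe was not called changed the same way.

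Of the 67 named probes changed the same way, between 58 and 66 kept that call when 1 array was left out. Those that lost it in at least 1 such fit were Cx3cr1, C1qb, Mbp, Tekt1, Gpc6, Igf2, Slc7a11, Pdia4, Psmb1, Ccne1, Cdc20 and the dim probe of Ctsc. Without SOD1-G93A replicate 1 and 2, 59 and 58 kept it, and without replicate 3, 59. Without SOD1-WT replicate 1, 2 and 3, 64, 64 and 66 kept it, and without nontransgenic replicate 1, 2 and 3, 58, 59 and 60. Every other named probe changed the same way, among them Ccl12, Ccl2, Cxcl10, Sparc, Pttg1, Gfap, Aqp4, Thsd4, Gjb6, Taldo1 and Srxn1, kept the call in all 9 of these fits.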

How the data were processed

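Total RNA from 9 cultures was amplified with the Illumina TotalPrep kit and processed in BeadStudio (version not given in the sources used here), per the submitters' processing notes and the labels. Per the file headers the deposited raw table holds, for each probe and array, a mean bead intensity, its standard error, a count of beads (on average 34.8 to 35.7) and a detection p-value. From the values, intensities were neither background-subtracted nor scaled. The authors' second table holds intensities with background removed, and was used as an alternative after adding 11.1 before taking log2.

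The limma package (3.58.1, under R 4.3.3) normalised raw intensities by its neqc function (negative controls inferred from detection p-values, offset 16, quantiles, log2). A fit with 3 groups gave 4 contrasts (both lines averaged, each line, and SOD1-G93A minus SOD1-WT), tested two-sided, Benjamini-Hochberg adjusted over 13972 probes within each contrast, with 6 residual and 7.52 prior degrees of freedom. The fit was tested on simulated data. Probes on exactly 3 arrays numbered 392 (median highest log2 value 4.85), and 445 on exactly 2 were left out (4.74). Symbols came from the platform annotation, updated through a RefSeq gene table (GRCm38.p6; 20984 of 24613 probes have 1 symbol); chromosomes and neighbours come from that table, since the files name no build. A gene stood in a list by its brightest kept probe.

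Named genes were the 15 probes with the greatest rise and 15 with the greatest fall, changed the same way with separate arrays, up to 4 per list by smallest p, the study's list, Sod1 and Gfap, the 5 largest changes where the lines differ, and the 5 largest line differences each way among opposite calls. The members, lists and tests were chosen with earlier results of these data known. Alternatives were the authors' table, no background correction, median centring, an offset of 50, 2 filters, 2 groups, a replicate block, other priors, array weights and leaving out each array. Same-numbered replicates did not pair: correlations of their deviations ran from -0.02 to 0.15.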

Additional observations from a re-analysis of the deposited data

Results flagged for a closer look

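At 46 named genes the lines differed from each other by 2-fold or more past an adjusted p of 0.05 (limma), which is the direct test of the difference. Values are the log2 difference SOD1-G93A minus SOD1-WT, 3 arrays each. Among genes changed the same way in both lines, SOD1-G93A glia were below SOD1-WT glia in Pdrg1 (-3.67), Ctsc (-3.02), Rsph4a (-1.68), Actb (-1.25), Tekt1 (-1.19), Dynlrb2 (-1.15), Kif3a (-1.07) and Folr1 (-1.03). They were above SOD1-WT glia in Nqo1 (1.04), Ctsk (1.16), Sphk1 (1.22), Thsd4 (1.22), Igf2 (1.23), Dnajc5b (1.26), Pdgfra (1.49), Slc7a11 (1.69), Ptgis (2.00), Mpzl2 (2.06), Col1a1 (2.32), Aqp1 (2.57), Igfbp6 (2.93), Stra6 (2.93), Foxc2 (3.08), Ranbp3l (3.21), Cdh5 (3.35), Fam180a (4.16) and Mgp (4.43). Among genes on which the lines passed in opposite directions, SOD1-G93A glia were below SOD1-WT glia in Abhd16a (-5.03), H2-T23 (-4.53), Plac9a (-3.50), H2-T22 (-2.82), Ndufb10 (-2.39) and Psmb9 (-1.95). They were above SOD1-WT glia in the opposite genes Armh4 (1.59), Ccn2 (1.66), Col1a2 (1.89), Tfap2b (2.39) and Lum (3.71). Among named genes that passed for 1 line, SOD1-G93A glia were below SOD1-WT glia in Odf3b (-2.83) and Kdm5d (-2.78). They were above SOD1-WT glia in the 1-line genes Ptgdr (1.03), Ifi35 (1.28), Bgn (1.35), Cxcl12 (1.68), Parp12 (2.47) and Ptgds (6.04). For probes not detected on any array of 1 line the fitted difference is no exact size, and setting each dim array to its dimmest detected probe gives a bound. SOD1-G93A glia were at least 14.2-fold higher in Fam180a, 8.50-fold in Cdh5, 6.79-fold in Foxc2, 3.36-fold in Ptgis, 2.18-fold in Dnajc5b, 2.16-fold in Ifi35 and 1.58-fold in Ptgdr, and at least 10.9-fold lower in Pdrg1 and 5.04-fold lower in Kdm5d. The second Ctsc probe gave a difference of -0.23 (adjusted p = 0.249).

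The bead standard error, a measure outside the comparisons, had a median of 6.84% of the signal on SOD1-WT replicate 3, against 5.08% to 5.23% on the 8 other arrays.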

How the results depend on the processing

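Treating the 6 transgenic arrays as 1 group gave 1227 calls for both lines together in place of 2850; by its construction the spread then holds the difference between lines. Leaving out 1 array at a time gave 2075 to 3191 calls, 746 to 1220 probes changed the same way, and 263 to 439 of these at which the lines differ. It gave a log2 change of 0.79 to 0.95 for Gfap and 0.19 to 0.36 for Sod1. The other settings kept the 3 counts within 1.5 times of their values, with 2353 to 3422 calls and 815 to 1351 probes changed the same way. Replicate numbers as a block, although they showed no clear pairing of the samples, gave 2981 calls and 1051 probes changed the same way. The Sod1 change passed with an offset of 50 (0.25, adjusted p = 0.0372), with a trend and robust priors (0.25, 0.0324), with array weights (0.29, 0.0194) and without nontransgenic replicate 1 (0.36, 0.0213), and the cause was not tested. Col1a2, not past the threshold, had -0.09 and turned to 0.028 with the offset of 50. Over 2287 values of named genes under an alternative, 2154 kept direction and side of the threshold, 119 lost and 13 gained the call. Of 936 recomputed list counts, added after seeing the data, 846 stayed within 1.5 times. No setting moved the median of all probes by over 0.1. Probes near background, such as Cat and Ext2 in transgenic glia, limit the precision of folds.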

Other observations

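Genes changed by 2-fold or more in both lines were also set against their position, a view chosen after the values had been seen. Of 40 such genes that were higher, 8 lay on mouse chromosome 11 (20% of them, against 8.58% of all measured genes), among them Ccl12, Ccl2, Pttg1, Sparc, Plek, Trim11 and Kif3a. Another 7 lay on chromosome 15 (17.5%, against 4.10%) and 7 on chromosome 5 (17.5%, against 6.53%). These 3 chromosomes held 22 of 40 (55%), against 1889 of 9838 measured genes (19.2%). They were the chromosomes with the most such genes, so an excess follows from the choice. A gene counted if any of its probes qualified, which for Ccl12 and Kif3a was 1 of 2. Of the 83 genes that were lower, 14 (16.9%) lay on these 3 chromosomes. Among all 123 genes, 12 (9.76%) had another as the next measured gene on the chromosome, against 2.39% of other genes with such a neighbour. These 12 form 6 pairs. In 5 of them both genes fell: the connexins Gjb2 (log2 change -2.21) and Gjb6 (-1.52), the matrix genes Smoc2 and Thbs2, Cldn11, a tight junction protein (-2.51), with Slc7a14 (-1.49), Nupr1 (-1.28) with Sult1a1 (-1.62), and the alpha-defensins Defa31 and Defa24. In the other pair Slc16a9 fell (-1.16) and Phyhipl rose (1.26). Smoc2, Defa31 and Defa24 were not detected in SOD1-WT glia and were there at least 14.2-fold, 9.59-fold and 5.21-fold lower, and the defensins are close paralogs whose probes may not be specific. These are descriptions with no test.

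Further genes outside the naming rule, chosen after their values had been seen, moved by about the same amount in both lines. Egln3, a prolyl hydroxylase, stood at 8.23, 8.60 and 8.46 in SOD1-G93A glia and 8.44, 8.74 and 8.13 in SOD1-WT glia, against 10.08, 9.85 and 9.43 in nontransgenic glia (-1.36 ± 0.15, limma adjusted p = 1.69e-05). Angptl4, an inhibitor of lipoprotein lipase, fell by 1.58 ± 0.11 by its brighter probe (log2 change -1.58, adjusted p = 1.22e-07) and by 0.51 by the other, and Ankrd37 fell by 1.16 ± 0.16 (adjusted p = 8.46e-05). Cd52, a small surface glycoprotein of leukocytes, fell by 2.28 ± 0.15 (adjusted p = 1.06e-07). Nnat, an imprinted membrane proteolipid, rose by 1.35 ± 0.10 and 1.11 ± 0.11 by its 2 probes (adjusted p = 4.16e-07 and 4.57e-06).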
